A study of Arabidopsis thaliana with 6 samples.

Results

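The regions described here are the starts of 1988 long noncoding RNA (lncRNA) genes of Arabidopsis thaliana that lie away from protein-coding gene starts. They were taken from the TAIR10.1 annotation, which holds 3480 genes of the lncRNA biotype on its 5 nuclear chromosomes among 37899 annotated nuclear genes. A gene was kept when no transcription start site (TSS) of a protein-coding gene lay within 1000 bp of its own annotated start, and 1492 lncRNA genes were left out by that rule. A start was scored as marked when at least 1 bp of a deposited H3K9Ac peak fell within 500 bp of it on either side. Of the 1988 genes, 584 overlap a protein-coding gene on the opposite strand and are called antisense, 1396 overlap no protein-coding gene and are called intergenic, and 8 overlap a coding gene on their own strand only.

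The peaks came from ChIP-seq of acetylated lysine 9 of histone H3 (H3K9Ac) in whole, dark-grown seedlings of Arabidopsis. All groups were 3 days old and carried the ein2-5 mutation, a loss-of-function allele of EIN2, the membrane protein through which ethylene signalling reaches the nucleus. Seedlings were kept in air or in ethylene at 10 ppm for 4 h. There were 2 H3K9Ac libraries per treatment and 1 control library per treatment, titled IgG in the labels while their antibody field names protein G beads. The authors pooled the libraries before peak calling, which leaves 1 list of peaks for air and 1 for ethylene, and replicate spread cannot be read from them. They are therefore compared by description, with no test of the treatment. Only 1 mutant line was used, without wild-type seedlings in these lists, and whole seedlings average over all of their cell types.

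After removal of duplicates, the pooled H3K9Ac tags numbered 45582654 in air and 43572576 in ethylene, a similar depth, whereas the controls held 13726993 and 4354374 tags. The air list had 18314 peaks whose breadth had a median of 578 bp, and the ethylene list 12864 peaks with a median of 423 bp. Treatment and control depth cannot be told apart in any difference between the lists. All 5 genes listed as active in most tissues had a start peak in both lists, none of the 5 flower and seed genes had one, and the EIN2 start was marked in both.

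Long noncoding RNAs are transcripts without a recognisable protein product. In plants they include antisense transcripts, which run against a host gene and can influence its transcription, and intergenic transcripts made from their own promoters, some of which act as targets or precursors of small RNAs or as decoys for them. H3K9Ac is deposited by histone acetyltransferases on nucleosomes just downstream of active promoters, so that a peak near an annotated start is a measure of chromatin state there and not of the transcript.

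Sequence around 7 starts is shown because these loci carry the results below: the strongest air peaks whose window is free of untranslated bases of coding genes, the broadest peak, a start with a broader ethylene peak, and a start with a TATAAA upstream. The windows run 5′ to 3′ on the strand of the lncRNA, from 200 bases before the annotated start to 99 bases after it, and were read from the RefSeq TAIR10.1 genome. Capitals mark matches, on either strand, to TATAAA (the TATA box core), AAACCCTA (the telo box), TGGGCC (the site II element) or GAGAGA (the GAGA repeat). AT4G26542, AT1G29357 and AT2G09745 were added for display after their values and motif matches had been seen.
AT4G37553, chr4:17649968-17650267, minus strand: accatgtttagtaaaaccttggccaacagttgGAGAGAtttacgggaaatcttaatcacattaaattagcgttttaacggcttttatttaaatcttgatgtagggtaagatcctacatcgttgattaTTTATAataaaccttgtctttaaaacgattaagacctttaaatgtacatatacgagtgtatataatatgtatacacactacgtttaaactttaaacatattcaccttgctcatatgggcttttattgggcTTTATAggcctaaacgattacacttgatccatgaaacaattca
AT2G08795, chr2:15271677-15271976, plus strand: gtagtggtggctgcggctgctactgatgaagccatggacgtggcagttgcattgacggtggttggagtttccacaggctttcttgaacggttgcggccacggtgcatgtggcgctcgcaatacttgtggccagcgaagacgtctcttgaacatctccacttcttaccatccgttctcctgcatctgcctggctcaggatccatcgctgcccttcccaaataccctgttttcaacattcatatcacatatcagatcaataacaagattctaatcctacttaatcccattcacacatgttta
AT4G26542, chr4:13395215-13395514, plus strand: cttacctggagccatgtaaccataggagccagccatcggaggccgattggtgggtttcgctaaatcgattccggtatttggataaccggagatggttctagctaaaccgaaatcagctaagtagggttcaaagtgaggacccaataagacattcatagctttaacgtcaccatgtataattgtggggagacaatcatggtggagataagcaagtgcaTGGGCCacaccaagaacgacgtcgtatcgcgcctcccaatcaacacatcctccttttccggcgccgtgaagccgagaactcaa
AT1G29357, chr1:10275666-10275965, minus strand: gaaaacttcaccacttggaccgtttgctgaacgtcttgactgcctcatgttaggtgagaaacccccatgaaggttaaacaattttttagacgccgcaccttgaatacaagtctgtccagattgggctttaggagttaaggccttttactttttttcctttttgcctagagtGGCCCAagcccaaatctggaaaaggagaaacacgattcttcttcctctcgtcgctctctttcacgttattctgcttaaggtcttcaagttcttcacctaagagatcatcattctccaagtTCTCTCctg
AT1G06323, chr1:10677572-10677871, minus strand: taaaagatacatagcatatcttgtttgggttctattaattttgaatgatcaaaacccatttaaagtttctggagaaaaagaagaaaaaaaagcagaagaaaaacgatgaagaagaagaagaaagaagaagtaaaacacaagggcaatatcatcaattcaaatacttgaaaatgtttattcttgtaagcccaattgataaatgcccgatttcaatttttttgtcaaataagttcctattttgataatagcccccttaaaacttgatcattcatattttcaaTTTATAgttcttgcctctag
AT4G06880, chr4:10579560-10579859, minus strand: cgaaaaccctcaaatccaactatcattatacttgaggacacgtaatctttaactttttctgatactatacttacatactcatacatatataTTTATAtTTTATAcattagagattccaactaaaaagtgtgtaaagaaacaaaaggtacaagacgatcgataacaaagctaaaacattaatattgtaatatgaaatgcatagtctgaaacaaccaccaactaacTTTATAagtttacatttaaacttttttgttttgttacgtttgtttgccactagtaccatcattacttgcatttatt
AT2G09745, chr2:19164001-19164300, minus strand: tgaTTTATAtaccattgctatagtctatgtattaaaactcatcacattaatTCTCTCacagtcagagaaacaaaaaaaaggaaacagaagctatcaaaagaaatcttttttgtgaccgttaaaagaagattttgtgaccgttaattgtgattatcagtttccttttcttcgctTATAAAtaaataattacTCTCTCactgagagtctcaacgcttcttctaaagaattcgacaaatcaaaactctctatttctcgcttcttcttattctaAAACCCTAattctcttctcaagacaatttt

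In the window of AT2G08795, which lies inside the GRF3 gene, no match was found. The window of AT1G29357 holds GGCCCA, the reverse complement of TGGGCC, just before the start, and that of AT4G26542 holds TGGGCC just after it. In AT2G09745 a TATAAA on the strand of the lncRNA starts at position -27, counted from -1 as the base before the start. A match is a description of letters and not of a bound factor.

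Antisense lncRNA starts were marked more often than intergenic ones. In air, 200 of 584 antisense starts had a peak (34.2%, 95% Wilson interval 30.5 to 38.2), against 181 of 1396 intergenic starts (13.0%, 11.3 to 14.8) and 2 of the 8 remaining starts. Over all 1988 members the count was 383 (19.3%). For background, 58.4% of the 27444 protein-coding gene starts had an air peak. Positions taken every 100 bp at more than 1000 bp from any coding TSS had an air peak in 16.8% of cases inside coding genes and in 3.99% outside them. Antisense starts thus lay above positions inside coding genes, intergenic starts above positions outside them, and both below coding starts. The positions were not matched for gene density. Of the 372667 positions outside coding genes, 173499 had fewer than 15 coding starts within 50 kb on each side, against 202 of 1396 intergenic starts. In the gene-richer settings given below, such positions were marked in 6.12% and 7.39% of cases, against 13.9% and 14.5% of intergenic starts. For the 98 antisense starts beyond the host's 3′ end, positions inside coding genes are not a matched background. The 486 antisense starts inside the host were marked in 31.7% of cases. Intergenic pseudogene starts at the same minimal distance, another kind of annotated start outside coding genes, were marked in 2.41% of 4272 cases. Any transposon genes within this annotated class were not separated out. The authors reported H3K9Ac as depleted in transposable elements in wild-type seedlings, so this set is not a neutral background. These intervals cover counting error only, and neighbouring genes are not independent replicates.

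The ethylene list gave the same order at lower shares. There, 121 antisense starts (20.7%, 17.6 to 24.2) and 68 intergenic starts (4.87%, 3.86 to 6.13) were marked, 191 members in all. The corresponding backgrounds were 42.7% of coding starts, 8.96% of positions inside coding genes, 1.33% of positions outside them and 1.31% of intergenic pseudogene starts.

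**Figure D1:**
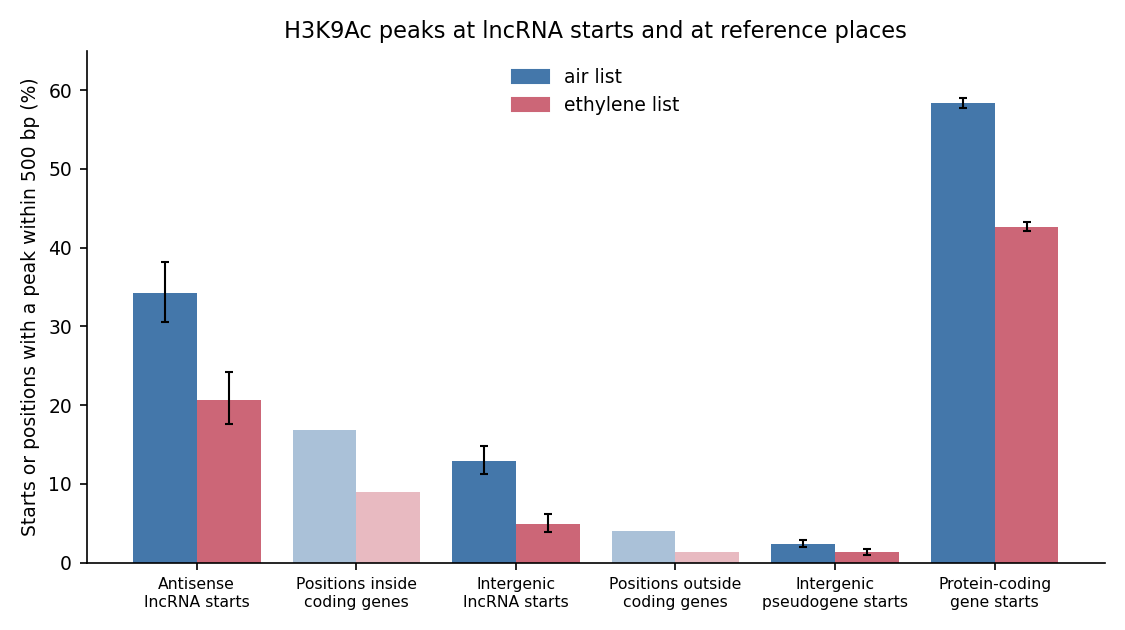
Share of starts or positions (y axis, percent) with an H3K9Ac peak within 500 bp in the air and the ethylene list, for antisense and intergenic lncRNA starts, positions every 100 bp at more than 1000 bp from a coding TSS (pale bars), intergenic pseudogene starts and all protein-coding starts; lines are 95% Wilson intervals. Antisense lncRNA starts reached 34.2% in air and intergenic ones 13.0%, against 16.8% of positions inside coding genes and 3.99% of positions outside them. The positions are not matched to the starts for gene density.

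Many of the antisense marks belonged to peaks centred near a coding start. The air summit, the point of highest tag density, lay within 1000 bp of a coding TSS for 120 of the 200 marked antisense members (60.0%) but for 13 of the 181 intergenic ones (7.18%). In 105 of the 200, the lncRNA start shared its strongest peak with the start of its own host gene. When all peaks with such summits were left out, an alternative chosen after the data had been seen, 87 antisense starts were still marked (14.9%, 12.2 to 18.0) against 5.03% of positions inside coding genes. The intergenic count hardly moved, at 170 (12.2%, 10.6 to 14.0) against 3.17% of positions outside coding genes. In ethylene the same step left 58 antisense starts (9.93%, 7.76 to 12.6) against 2.86% of positions, and 66 intergenic starts (4.73%, 3.73 to 5.97) against 1.01%. With those peaks left out, the intervals of the classes overlapped in air and did not overlap in ethylene.

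Distance to the nearest coding TSS showed the same contrast. Among the 486 antisense members whose start lies inside the host gene, 98 of 215 starts (45.6%) were marked in air at 1001 to under 1500 bp, 33 of 150 (22.0%) at 1500 to under 2000 bp, 19 of 95 (20.0%) at 2000 to under 3000 bp and 4 of 21 (19.0%) at 3000 to under 5000 bp. Positions inside coding genes at those distances were marked in 32.4%, 13.0%, 6.61% and 3.16% of cases. Beyond 1500 bp the antisense shares had overlapping intervals, while the share of marked positions went on falling. None of the 5 starts at 5000 bp or more was marked, too few to give a share.

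Intergenic starts showed no such slope. Air shares were 13.6%, 10.5%, 12.4%, 16.3% and 10.7% in the same 5 distance bands, on 337, 256, 338, 288 and 177 starts, and their intervals overlapped. Positions outside coding genes fell from 6.79% in the nearest band to 0.870% at 5000 bp or more. In that farthest band, 19 of 177 intergenic starts had an air peak, and 12 of them had one in ethylene as well.

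**Figure D2:**
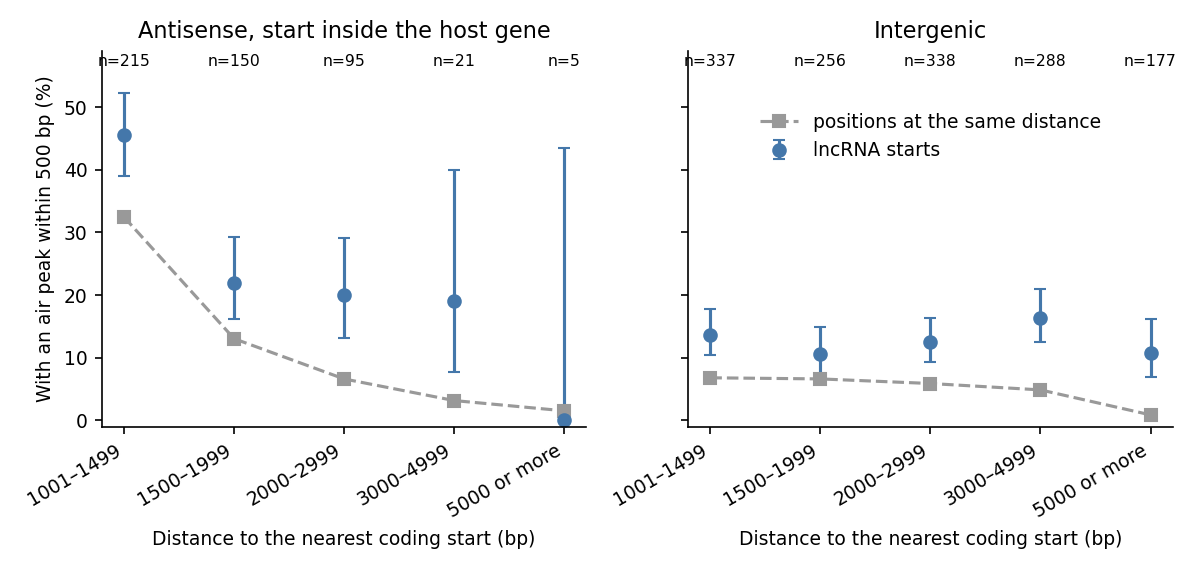
Share of lncRNA starts with an air peak within 500 bp (points, percent, with 95% Wilson intervals) against the distance from the nearest coding start in bp, beside genome positions at the same distance (squares), for antisense starts inside their host gene and for intergenic starts; n above each point is the number of lncRNA starts. Antisense shares were 45.6% in the nearest band and 19.0% to 22.0% in the next 3, whereas intergenic shares stayed between 10.5% and 16.3%.

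Marked antisense starts were found both inside the host and beyond its 3′ end. Starts that lie beyond the host's 3′ end, so that the lncRNA runs into the host tail to tail, were marked in 46 of 98 cases in air (46.9%, 37.4 to 56.7), and starts inside the host in 154 of 486 (31.7%, 27.7 to 35.95). Among the latter, starts in the 50% of the host nearest its own start were marked in 35 of 72 cases (48.6%, 37.4 to 59.9). As a background, 14.9% of coding gene 3′ ends at more than 1000 bp from a coding TSS had an air peak and 7.35% an ethylene peak, which 34 of the 98 starts beyond the host's 3′ end had (34.7%). Of the 46 marked starts beyond the 3′ end, 12 summits lay near a coding TSS and 8 peaks were shared with the host start, against 108 of 154 and 97 of 154 inside the host. Antisense starts whose host start was itself marked in air had a peak in 160 of 425 cases (37.6%, 33.2 to 42.3), and those with an unmarked host start in 40 of 159 (25.2%, 19.1 to 32.4). Of these 40, 34 summits lay more than 1000 bp from any coding TSS.

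Summits lay downstream of the annotated start in most cases, inside or past the lncRNA. In air the median offset was +568.5 bp for antisense members, with 178 of 200 summits downstream, and +142 bp for intergenic members, with 116 of 181 downstream. For an antisense lncRNA that starts inside its host, downstream is also the direction of the host's own start. Of the 200 antisense peaks, 105 were also that of the host start, so the antisense direction is in part set by this layout. The 80 antisense summits away from coding starts had a median offset of +246.5 bp (quartiles 161.75 and 513.5) and 45 of them fell 1 to 500 bp downstream. For comparison, the median at protein-coding starts was +308 bp. The 120 antisense summits near a coding TSS sat farther in, at +762 bp. The 168 intergenic summits away from coding starts had a median of +149 bp but a wider spread around the start (quartiles -80 and 324), and 93 of them fell 1 to 500 bp downstream.

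**Figure D3:**
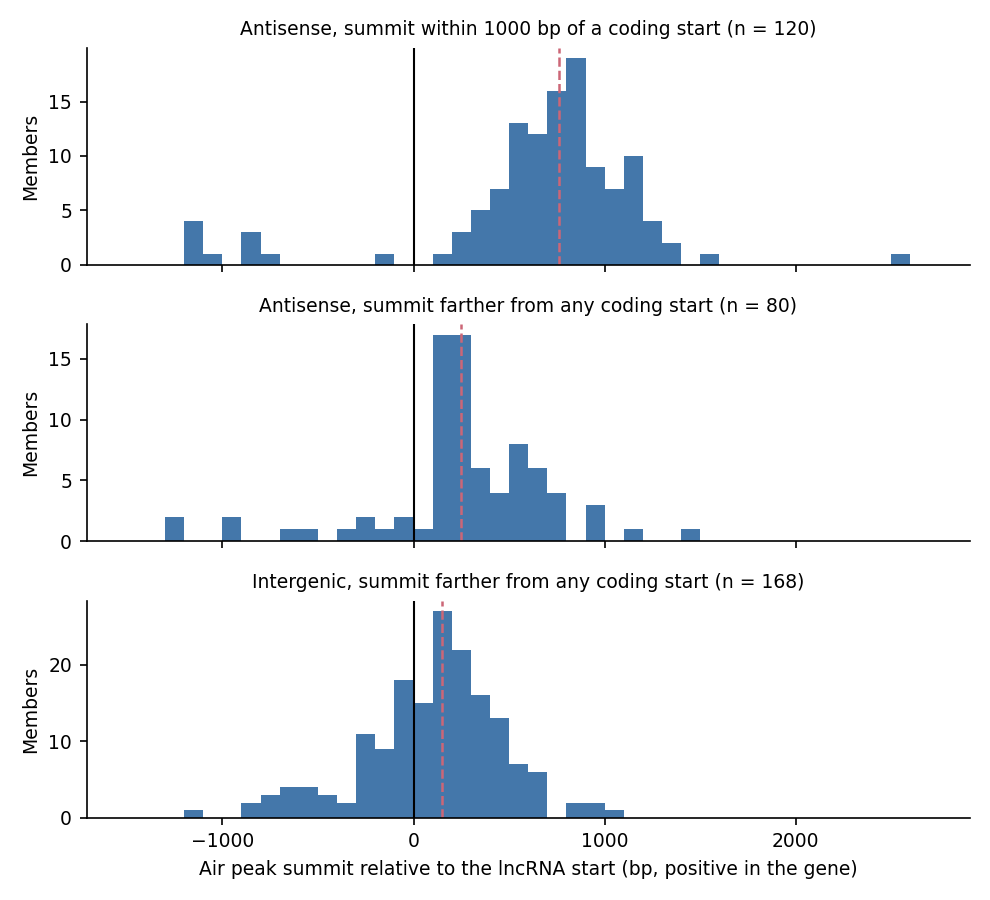
Position of the air summit relative to the annotated lncRNA start (x axis, bp, positive into the gene; y axis, number of members in 100-bp bins) for antisense members with a summit within 1000 bp of a coding start, antisense members with a summit farther away, and intergenic members with a summit farther away. Solid lines mark the start and dashed lines the medians, which lie at +762, +246.5 and +149 bp.

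Peaks at antisense starts were broader and higher than those at intergenic starts in air. Median breadth was 813 bp (95% interval of the median 709 to 879, range 200 to 2694) for the 200 antisense members and 449 bp (413 to 518, range 200 to 1458) for the 181 intergenic members. The medians stood on either side of the 611 bp of protein-coding starts. Fold enrichment over the control, as MACS2 gives it, had a median of 2.59 (2.48 to 2.66) at antisense and 2.12 (1.98 to 2.29) at intergenic starts, against 2.44 at coding starts. The pileup at the summit, which MACS2 scales to the control library, was 87.3 and 61.4, equal to 290 and 204 tags. Restricted to summits away from coding starts, antisense peaks had a median breadth of 598 bp and a median fold enrichment of 2.42, and intergenic peaks 441.5 bp and 2.04.

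In the ethylene list, median breadth was 586 bp at antisense starts and 409.5 bp at intergenic starts. Median fold enrichment was 2.24 and 2.30 there, with overlapping intervals of the median (2.12 to 2.37 and 2.18 to 2.42), and the median tag number was 294 and 288. The pileup values of 29.4 and 28.8 are on the scale of the smaller ethylene control and cannot be set against those in air. At the starts marked in both lists, the air fold enrichment too had similar medians, 2.68 for antisense and 2.80 for intergenic members.

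Longer lncRNA genes were marked more often. Members ranged from 200 to 7767 bp in length, with a median of 548.5 bp for antisense and 321.5 bp for intergenic genes. Among antisense genes, air shares were 24.5% of 143 genes below 300 bp, 23.4% of 128 genes from 300 to under 500 bp, 30.4% of 115 genes from 500 to under 1000 bp and 50.5% of 198 genes of 1000 bp or more. In the same 4 bands, intergenic shares were 9.81% of 581, 13.9% of 570, 15.9% of 226 and 47.4% of 19. Genes with more than 1 annotated exon had an air peak in 65 of 156 antisense (41.7%) and 28 of 174 intergenic cases (16.1%), and genes with 1 exon in 31.5% and 12.5%. How far length and distance from the host start move together was not tested.

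The 19 intergenic genes of 1000 bp or more form a small group whose marked starts had summits at about the offset of coding starts. In air, 9 of them were marked, all 9 with a summit downstream of the start and 8 with a summit within 500 bp, at a median offset of +302 bp. In ethylene, 8 of these 9 were marked. AT2G24755, with 6 exons and a length of 7767 bp the longest member, lies on chromosome 2 at 10541727 to 10549493, 9680 bp from the nearest coding TSS. Its air peak was 848 bp broad with a fold enrichment of 2.91 and 306 tags, and its ethylene peak 740 bp with 2.82 and 278 tags. AT3G29644, 20234 bp from a coding TSS on chromosome 3 (11498879 to 11501424), had 833 bp, a fold enrichment of 3.26 and 332 tags in air, and 748 bp, 3.56 and 346 tags in ethylene. AT2G09795, 21610 bp from a coding TSS on chromosome 2 (3669906 to 3672766), had 675 bp and a fold enrichment of 3.24 in air and 618 bp and 2.05 in ethylene. These 3 genes were picked after their values were seen, for their distance from coding genes. The unmarked long genes, such as AT1G06963 (1198 bp) and AT2G04205 (1056 bp), had no peak in either list.

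Intergenic starts in gene-poor chromosome parts were marked less often. With fewer than 15 coding starts within 50 kb on each side, 11 of 202 intergenic starts had an air peak (5.45%, 3.07 to 9.49), against 75 of 539 (13.9%) with 15 to under 25 and 95 of 655 (14.5%) with 25 or more. Positions outside coding genes in those settings were marked in 0.799%, 6.12% and 7.39% of cases. By chromosome, intergenic shares in air ran from 11.7% on chromosome 1 to 16.0% on chromosome 5 with overlapping intervals. Antisense shares ran from 27.5% (20.0 to 36.6) on chromosome 3 to 42.2% (32.1 to 52.9) on chromosome 4, whose intervals overlap too. Whether the nearest coding gene turned its 5′ end (12.6% of 603) or its 3′ end (13.2% of 793) towards an intergenic start made little difference.

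What else lay under the intergenic peaks was read from the annotation. For 93 of the 181 air-marked intergenic members the peak overlapped no other annotated gene, and 25 of these were also marked in ethylene. Their peaks were narrow, with a median breadth of 387 bp and a median fold enrichment of 1.93. Another lncRNA gene lay under the peak of 39 members, a miscellaneous RNA gene under 18, a snoRNA gene under 14, a protein-coding gene under 11, a pseudogene under 7, a microRNA gene under 6 and a gene of the ncRNA biotype under 5. A peak can overlap more than 1 of these types. The 181 members drew on 158 distinct peaks, because neighbouring lncRNA genes can share one.

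The 5 antisense genes with the highest air fold enrichment among peaks that cover no coding TSS were AT1G09053, AT1G76878, AT4G37553, AT2G08795 and AT3G04695. AT1G09053 (chromosome 1, 26041040 to 26042686) runs against RPK1, a receptor-like kinase gene. It had a fold enrichment of 4.08, 381 tags and a breadth of 2143 bp in air, with a summit 1147 bp upstream of the start and 988 bp from a coding TSS. That TSS is not the RPK1 start, which lies 1701 bp downstream of the lncRNA start, and this air peak was not that of the RPK1 start. In air 2 peaks reached the window, and only the stronger is described here. The ethylene peak did not overlap it and had 1171 bp, a fold enrichment of 2.29 and 357 tags. Its summit lay 1333 bp downstream and 368 bp from a coding TSS. The RPK1 start was marked in both lists. How this ethylene peak relates to the weaker air peak was not tested. AT1G76878 (chromosome 1, 28865305 to 28868258) runs through AT1G76880, a homeodomain-like gene, and shared the air peak of its host start, with a fold enrichment of 4.04, 394 tags and 2410 bp. In ethylene this interval held 2 separate peaks. The one within 500 bp of the lncRNA start had 1.66, 255 tags and 1071 bp, and the other, with its summit 25 bp from the air summit, had 2.25, 395 tags and 1067 bp.

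AT4G37553 (chromosome 4, 17646613 to 17650067, 6 exons) is the only one of these 5 whose host start, that of the acetamidase/formamidase family gene AT4G37560, had no peak in either list. The lncRNA starts beyond the host's 3′ end, and the air summit lay 285 bp downstream of its start and 3374 bp from any coding TSS, with a fold enrichment of 3.88, 350 tags and 480 bp. In ethylene the peak was 246 bp broad, with a fold enrichment of 1.90 and 333 tags. AT2G08795 (chromosome 2, 15271877 to 15272103), within the growth regulator gene GRF3, lay under the host's own peak, which had 3.82, 333 tags and 1380 bp in air and 2.12, 329 tags and 1248 bp in ethylene. AT3G04695 (chromosome 3, 8921112 to 8921364), within the aldehyde dehydrogenase gene ALDH2C4, had 3.68, 336 tags and 1453 bp in air and no ethylene peak within 500 bp, while the host start was marked in both lists. Its air peak was shared with the host start, and the air summit lay 1282 bp downstream of the lncRNA start.

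The 5 intergenic genes chosen in the same way were AT1G06323, AT4G06880, AT2G09745, AT3G07395 and AT1G08213. AT1G06323 (chromosome 1, 10677329 to 10677671) had a fold enrichment of 3.64, 330 tags and 637 bp in air and 3.63, 339 tags and 553 bp in ethylene. Its summits lay upstream of the start, at -285 bp in the air list and -328 bp in the ethylene list, and the peak overlapped a miscellaneous RNA gene. AT4G06880 (chromosome 4, 10579179 to 10579659) had 3.61, 344 tags and 938 bp in air and 2.25, 327 tags and 839 bp in ethylene, with a microRNA gene under the peak and the air summit 910 bp downstream.

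For the other 3, the summits lay close downstream of the annotated start. AT2G09745 (chromosome 2, 19163718 to 19164100) had a fold enrichment of 3.61, 320 tags and 500 bp in air and 2.97, 317 tags and 343 bp in ethylene, with offsets of 156 and 178 bp. AT3G07395 (chromosome 3, 17019046 to 17019257), the only one of the 5 with no other annotated gene under its peak, had 3.58, 327 tags and 414 bp in air and 2.25, 318 tags and 255 bp in ethylene, with offsets of 193 and 192 bp. AT1G08213 (chromosome 1, 21616454 to 21616960) had 3.41, 357 tags and 559 bp in air and 2.35, 342 tags and 463 bp in ethylene, with another lncRNA and a miscellaneous RNA gene under the peak. All 5 starts were marked in both lists, and their tag numbers differed little between the lists. Tag numbers cannot exceed 400 under these settings, so high values are compressed and such closeness is not a measure of equal acetylation.

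The broadest air peaks lay over coding genes. At antisense starts they were those of AT4G26542 (2694 bp, in a leucine-rich repeat receptor kinase gene, AT4G26540), AT2G35945 (2558 bp, in BLH1, a homeobox gene) and AT1G76878 (2410 bp), and each was also the peak of the host's start. At intergenic starts they were those of AT2G09265 (1458 bp), AT2G08945 (1449 bp) and AT5G08745 (1332 bp). Each of these last 3 peaks overlapped a protein-coding gene near the lncRNA, with summits 1648 bp, 1077 bp and -1137 bp from the lncRNA start, and none of the 3 starts had an ethylene peak.

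**Figure D4:**
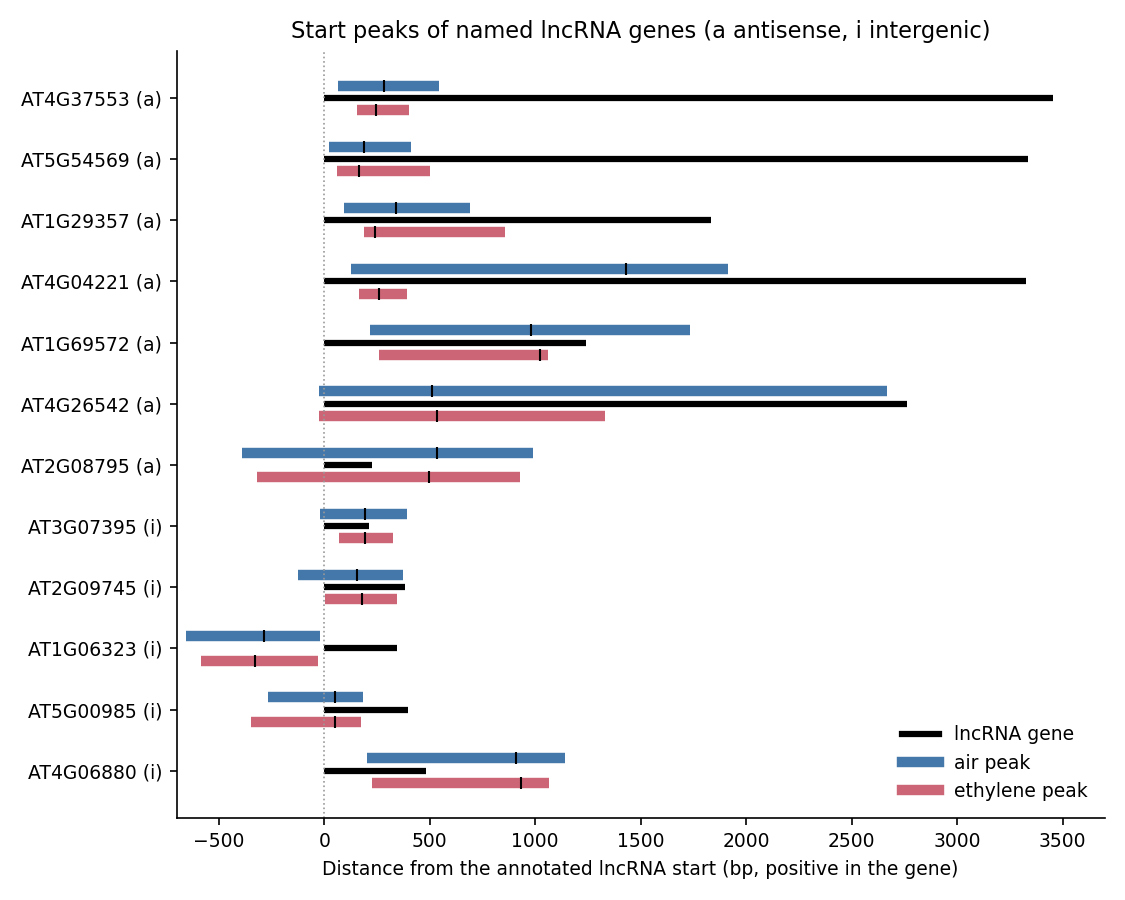
Start peaks of 12 named lncRNA genes drawn to scale from the annotated start (x axis, bp, positive into the gene). The black bar is the lncRNA gene, the bars above and below it are the strongest air and ethylene peaks within 500 bp of the start, and ticks mark summits. In AT4G37553 and AT3G07395 the air summits lie 285 and 193 bp into the gene, whereas in AT1G06323 both peaks lie upstream.

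Ethylene-list calls were contained in the air-list calls. Of the 1988 starts, 383 had an air peak, of which 191 also had an ethylene peak and 192 did not. The remaining 1605 had no peak in either list, and 0 starts had an ethylene peak without an air peak, which allows a share of up to 0.151% of starts (3 counts, counting error only). Of the air-marked starts, 49.9% (44.9 to 54.9) also had an ethylene peak, 60.5% (53.6 to 67.0) of antisense and 37.6% (30.8 to 44.8) of intergenic ones. At protein-coding starts the figure was 72.8%, and 39 of those 27444 starts were marked in ethylene only. At coding gene 3′ ends more than 1000 bp from a coding TSS it was 49.0% (46.9 to 51.1). At intergenic pseudogene starts beyond that distance it was 54.4% (44.8 to 63.7). Members marked in air only had a lower air fold enrichment, with a median of 2.01, than members marked in both lists, with 2.72. Their peaks were narrower, at 416.5 bp. Among the air-only starts the highest fold enrichment was 3.68, that of AT3G04695. This air peak was also that of the host start, and the host start was marked in both lists. The peak reached only the edge of the window, beginning at 8921607 for an lncRNA start at 8921112, with its summit 1282 bp downstream.

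Where an air and an ethylene peak overlapped, the ethylene peak was usually the narrower. This held for 176 of 186 member pairs, and 10 were broader. Subtracting the air breadth from the ethylene breadth gave a median of -226 bp (-251 to -173) over all pairs, -234.5 bp for 116 antisense pairs and -176 bp for 68 intergenic pairs, next to -208 bp at protein-coding starts. Tag numbers at the summits, which cannot exceed 400 under these settings and are compressed when high, differed far less. Their medians were 294 in air and 292.5 in ethylene, with a median difference of -2.97 tags, higher in 70 pairs, lower in 109 and equal within rounding in 7. The number of H3K9Ac tags at the summit was close to equal on this compressed scale, and the called interval was shorter. The ethylene control held fewer tags than the air control, and treatment and control depth cannot be told apart in this difference in breadth. Close tag numbers on such a scale are not a measure of equal acetylation.

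**Figure D5:**
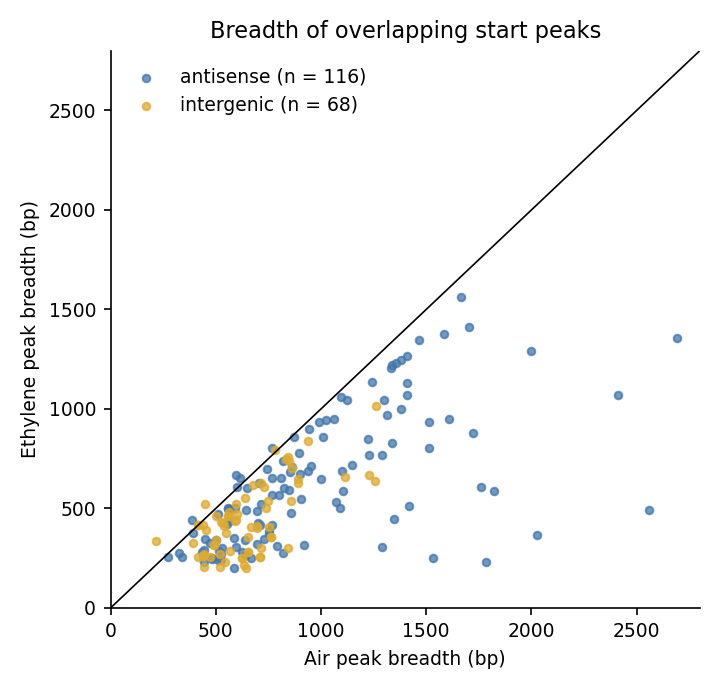
Breadth of the ethylene peak against that of the overlapping air peak, in bp, for 116 antisense and 68 intergenic lncRNA starts; the line marks equal breadth. All but 10 of the 186 pairs (2 with a coding gene on the same strand are not drawn) lie below the line, with a median difference of -226 bp.

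The air peak overlapped 1 ethylene peak in 174 of the 186 pairs and more than 1 in 12. Among the 174, the ethylene peak was narrower in 164, with a median difference of -205 bp. With the breadths of all ethylene peaks under an air peak added up, the median over the 186 pairs was -221.5 bp. The summits compared lay more than 500 bp apart in 7 pairs.

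Among members with 1 start peak in each list that covers no coding TSS, the 3 with the largest fall in called breadth were all cases in which the air peak spanned 2 ethylene peaks. At AT4G04221, which runs tail to tail against RLP46, a receptor-like protein gene whose own start was unmarked, the air peak was 1786 bp broad with 267 tags. The ethylene peak within 500 bp of the start was 232 bp with 190 tags, its summit 1173 bp from the air summit, while the other, 17 bp from the air summit, was 878 bp with 263 tags. At AT1G76878 the air peak of 2410 bp stood against the ethylene peaks of 1071 and 1067 bp given above. At AT4G26542 the air peak was 2694 bp with 364 tags, and the ethylene peaks were 1358 bp with 364 tags, 27 bp from the air summit, and 776 bp with 271 tags, nearer the host start. At the air summit itself, tag numbers in these 3 genes thus differed by a few tags at most. On the compressed tag scale this is not a measure of equal acetylation. The largest gains, chosen in the same way, were small. AT1G29357 went from 595 to 668 bp with 258 and 248 tags, AT5G00985, an intergenic gene, from 449 to 520 bp with 265 and 289 tags, and AT5G54569, which runs against the beta-glucosidase gene BGLU41, from 388 to 442 bp with 295 and 299 tags. The hosts of AT1G29357 and AT5G54569 had no start peak in either list, and both lncRNAs start beyond the host's 3′ end.

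Of 8 well-known lncRNA genes looked up, FLORE (AT1G69572) met the rule. FLORE is the antisense partner of CDF5 (AT1G69570), a Dof-type factor gene of the photoperiod and clock pathway, and lies at chromosome 1, 26161551 to 26162791. Its start was marked in air by a peak of 1515 bp with a fold enrichment of 2.90 and 272 tags, and in ethylene by one of 802 bp with 1.88 and 272 tags, the nearer of 2 ethylene peaks under the air peak. The air summit lay 978 bp into FLORE and 1186 bp from the nearest coding TSS, and the peak was also that of the CDF5 start. The COOLAIR gene of the FLC locus is an lncRNA in the annotation but starts 670 bp from a coding TSS and was left out. IPS1, AT4 and APOLO carry the protein-coding biotype there, and ASCO, ELENA1 and DRIR the ncRNA biotype, so that they are not members.

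Base composition differed between the classes more than between marked and unmarked starts. In the 300-base windows, median GC content was 37.0% at antisense starts with an air peak and 38.3% at those without, 32.7% and 33.3% at intergenic starts, and 33.3% at coding starts. Of the 4 motifs searched on both strands, TGGGCC occurred in 24 of 200 marked antisense windows (12.0%, 8.20 to 17.2) and 12 of 384 unmarked ones (3.13%, 1.80 to 5.38), in 21 of 181 marked intergenic windows (11.6%, 7.72 to 17.1) and 82 of 1215 unmarked ones (6.75%, 5.47 to 8.30). Over all 27444 coding windows the share was 15.3%, with 20.9% of those with an air peak and 7.46% of those without.

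At antisense starts the intervals of those shares did not overlap, and at intergenic starts they did. AAACCCTA was in 7.73% (4.66 to 12.6) of marked and 3.95% (2.99 to 5.20) of unmarked intergenic windows, in 3.00% and 2.08% of antisense ones and in 7.60% of coding windows. TATAAA was in 43.1% and 43.3% of intergenic, 37.5% and 31.8% of antisense and 50.2% of coding windows. GAGAGA, whose matches can overlap each other, was in 32.6% (26.2 to 39.7) of marked and 25.0% (22.7 to 27.5) of unmarked intergenic, 27.0% and 24.7% of antisense and 36.3% of coding windows. Each motif was therefore less frequent over all members (3.82%, 40.4% and 25.8% for these 3, and 6.99% for TGGGCC) than at coding starts.

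Members next to the distance limit can be set beside genes just outside it. At 1001 to 1200 bp from a coding TSS, 91 of 283 members (32.2%) were marked in air, and of the left-out lncRNA genes at 800 to 1000 bp, 91 of 263 (34.6%). In ethylene the shares were 18.0% (14.0 to 22.9) and 26.6% (21.6 to 32.3). Of the air-marked starts, 56.0% (45.8 to 65.8) of the members and 75.8% (66.1 to 83.5) of the left-out genes also had an ethylene peak. In the former group 73 of the 91 summits lay within 1000 bp of a coding TSS, and in the latter 82 of 91. At these distances, the start of the lncRNA and the coding start cannot be told apart as the centre of a peak.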

How the data were processed

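H3K9Ac ChIP-seq of ein2-5 seedlings was analysed from 2 deposited MACS2 peak lists made from 6 libraries. According to the file headers and the submitters' processing notes, the authors mapped 51-base reads to TAIR10 with Bowtie 1.1.2, used SAMtools and, after joining the tags of libraries that had the same treatment, ran MACS2 2.1.0.20150603 at a p of 0.01, keeping 1 tag per position and extending tags to 200 bp. The deposited pileup signal is the summit height scaled to the control library. The deposited fold enrichment is a ratio to the local control, and the deposited −log10 p-value was used only to rank peaks. Positions and breadth are in bp. The q-value column was not used. There were 0 columns of other samples.

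Pileup was divided by the scaling ratio from the headers (0.301 in air, 0.0999 in ethylene) to give tags, which came out whole within 0.05 for every peak and cannot exceed 400 at a point under these settings, so high peaks are compressed. Where several peaks reached a window, that with the highest fold enrichment was described. Nuclear sequences of TAIR10.1 were used as those of TAIR10. Shares have 95% Wilson intervals, and medians have order-statistic intervals. Overlap functions were tested on simulated data. Analyses used Python 3.11.15, pandas 2.3.3, NumPy 2.4.6, SciPy 1.17.1 and matplotlib 3.10.9.

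The members, gene lists, motifs and distance limits were chosen with earlier results of these data known. Named genes were, per class, the 5 with the highest air fold enrichment in a peak covering no coding TSS and the 3 with the broadest air peak. Also named were starts marked in ethylene only (there were 0), the 3 members that gained and the 3 that lost most breadth among those with 1 peak in each list covering no coding TSS, and known lncRNA genes. Sequences were to be shown for the first 2 of each class and for FLORE. Windows with untranslated bases of coding genes were replaced by the next in order, and additions are named as such. Results were recomputed under 8 other settings, each for the results it bears on, and under 2 more added after the data had been seen. Leaving out a replicate could not be run because the libraries were pooled.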

Additional observations from a re-analysis of the deposited data

How the results depend on the processing

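Of 68 alternative values, 39 stayed within the interval of the reported value, 29 moved and 0 reversed. Antisense starts had a higher air share than intergenic starts in all 10 settings compared, the main setting included. With a 250-bp window, shares were 21.6% (antisense, air), 10.7% (intergenic, air), 11.0% and 3.65% (ethylene), and 42.2% of air-marked members were also marked in ethylene. Counting summits inside the window only, they were 13.5%, 10.3% and, for antisense in ethylene, 10.103%, with a median air breadth of 446 bp and fold enrichment of 2.15. With peaks of a fold enrichment of at least 2, they were 29.3%, 7.31%, 15.8% and 3.44%, with 738 bp and 2.65. With the air list cut to the length of the ethylene list, air shares were 29.3% and 6.30%, with 767 bp and 2.71, and 66.5% of air-marked members were shared. With no coding TSS within 2000 bp (964 members), antisense shares were 27.2% and 16.5%, with 522 bp and 2.20. Without peaks whose summit lies within 1000 bp of a coding TSS, an alternative added after seeing the data, antisense shares were 14.9% and 9.93%, with 491 bp and 2.18. Fewer peaks, narrower windows or other members change the values by construction, but do not fix how far each class moves. With summits inside the window only, the antisense share in air fell more than the intergenic one. Their intervals then overlapped (11.0 to 16.5 and 8.83 to 12.0). Coding transcript starts in place of gene starts (1896 members), also added, a 50% overlap for the antisense class and for shared peaks, and leaving out peaks over a coding TSS moved none of the values.

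No paired analysis was possible because the libraries were pooled before peak calling, which also means that no replicate was left out. Peak presence depends on a caller threshold and on control depth, which differed between the treatments. A start without a peak is one where none was called at this depth. No transcript levels were analysed here.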
